A study of Mus musculus with 75 samples.

Results

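Chromatin accessibility of mouse skin fibroblasts was compared between passage 7 (P7) and passage 5 (P5), the last interval of a culture series that was followed until the cells stopped dividing. The comparison used all peaks of 6 ATAC-seq samples, 3 of P5 and 3 of P7, out of 75 samples in the series, of which 13 were ATAC-seq. The series followed untreated skin fibroblasts of 2-month-old female C57BL/6 mice through P1, P3, P5 and P7 by ATAC-seq and RNA-seq, and further RNA-seq experiments altered single transcription factors. All groups used here (P1, P3, P5 and P7) were of this strain and tissue, were not treated and carried no engineered allele, and they differed in passage. The cells were a primary culture split at each passage, so passage and time in culture rose together and cannot be told apart. Neither the labels nor the methods say whether the replicate numbers mark separate mice or cultures, so the tests measure the spread between these samples, which may be technical. Peaks that overlapped in any of the 6 samples were merged into 281675 regions. A region was called gained at P7 when over 60% of the P7 samples and no P5 sample held a peak there, and lost in the opposite case. There were 14823 gained regions, 5.26% of all regions, and 6060 lost regions, 2.15%. A further 136096 regions had a peak in all 6 samples, and for these the strength of the peak was compared.

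ATAC-seq inserts sequencing adapters with the Tn5 transposase, which reaches DNA that is not wrapped tightly on nucleosomes, so a peak marks an accessible stretch such as a promoter or an enhancer. Transcription factors bind short motifs in these stretches, and enhancers far from genes differ more between cell states than promoters do. In fibroblasts, AP-1 dimers of FOS and JUN proteins, TEAD factors of the Hippo pathway, RUNX factors and EBF factors bind many enhancers. AP-1 responds to growth factors and stress, while RUNX and EBF proteins are known for setting mesenchymal identity. Replicative senescence is a lasting arrest of division reached after repeated passaging, with low expression of cell cycle genes and secretion of inflammatory factors.

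Single regions were named, 8 per class, as those with the largest change among regions within 50000 bases of a gene tested in RNA-seq, so larger changes can lie elsewhere. The lines that follow give the 201 bases around the summit of the first 2 named regions of each class, with their nearest gene, to show where the motifs lie. Stronger and weaker regions are those whose peak ranked higher or lower at P7. The sequences are of the plus strand of mm10 (GRCm38, RefSeq) from 5′ to 3′, and capitals mark matches, on either strand, to AP-1 (TGANTCA), TEAD (GGAATG), RUNX (TGTGGT) and EBF (CCCNNGGGA) motifs.
Ppp4r3b, gained, chr11:29209868-29210068: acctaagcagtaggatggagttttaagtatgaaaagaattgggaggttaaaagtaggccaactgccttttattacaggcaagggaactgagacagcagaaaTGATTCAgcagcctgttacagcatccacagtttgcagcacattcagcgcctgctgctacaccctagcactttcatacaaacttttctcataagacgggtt
Zfp119a, gained, chr17:55850641-55850841: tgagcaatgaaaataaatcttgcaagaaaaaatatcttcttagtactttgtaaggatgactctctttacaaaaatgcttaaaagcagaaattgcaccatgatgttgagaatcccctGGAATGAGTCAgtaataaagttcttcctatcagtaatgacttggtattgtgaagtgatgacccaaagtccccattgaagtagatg
Arhgap20, lost, chr9:51747489-51747689: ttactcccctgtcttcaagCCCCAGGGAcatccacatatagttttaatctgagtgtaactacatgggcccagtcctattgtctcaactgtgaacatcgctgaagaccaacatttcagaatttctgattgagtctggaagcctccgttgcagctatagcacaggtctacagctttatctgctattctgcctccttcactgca
Tspo, lost, chr15:83567803-83568003: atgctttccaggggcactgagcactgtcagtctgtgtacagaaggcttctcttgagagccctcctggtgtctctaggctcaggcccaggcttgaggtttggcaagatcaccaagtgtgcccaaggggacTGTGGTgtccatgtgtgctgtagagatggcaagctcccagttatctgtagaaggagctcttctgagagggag
Perp, stronger, chr10:18894505-18894705: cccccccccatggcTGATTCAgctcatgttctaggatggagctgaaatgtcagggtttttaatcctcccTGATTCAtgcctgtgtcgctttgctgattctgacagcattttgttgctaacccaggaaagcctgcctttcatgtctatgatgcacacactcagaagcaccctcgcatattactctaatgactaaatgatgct
Slc25a15, stronger, chr8:22378788-22378988: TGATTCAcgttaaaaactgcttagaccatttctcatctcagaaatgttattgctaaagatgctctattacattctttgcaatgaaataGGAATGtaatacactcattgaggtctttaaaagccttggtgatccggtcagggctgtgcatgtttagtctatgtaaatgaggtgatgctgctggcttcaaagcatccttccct
Nnat, weaker, chr2:157555597-157555797: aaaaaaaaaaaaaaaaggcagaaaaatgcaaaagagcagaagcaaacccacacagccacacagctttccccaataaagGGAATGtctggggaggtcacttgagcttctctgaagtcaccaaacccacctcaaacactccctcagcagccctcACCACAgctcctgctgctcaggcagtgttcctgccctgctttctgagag
Glrx, weaker, chr13:75833570-75833770: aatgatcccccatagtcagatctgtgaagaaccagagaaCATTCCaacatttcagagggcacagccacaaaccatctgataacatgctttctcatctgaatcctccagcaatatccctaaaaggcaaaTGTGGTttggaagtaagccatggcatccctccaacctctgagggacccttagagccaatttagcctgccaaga
Both gained and both stronger windows held AP-1 matches, and those near Zfp119a and Slc25a15 also held a TEAD match. In the window of Zfp119a the TEAD match ran into the AP-1 match. The lost and weaker windows held EBF, RUNX or TEAD matches and no AP-1 match. These 8 windows do not stand for all named regions, since AP-1 matches were in 6 of the 8 gained and 5 of the 8 stronger regions, but also in the lost region near Irgm1 and the weaker region near Hgsnat. A match describes these letters and was not tested for binding.

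To characterize accessibility across the genome, the peak lists of the 6 samples were first compared as a whole. The numbers of peaks were 198942, 207965 and 182402 in the 3 P5 samples and 200376, 231558 and 221288 in the 3 P7 samples. The lowest P7 sample had fewer peaks than the highest P5 sample, so the groups overlapped. The means were 196436 ± 12960 (SD, n = 3) at P5 and 217741 ± 15890 (SD, n = 3) at P7, with a two-sided exact permutation p of 0.2, where 3 against 3 samples cannot go below 0.1. The peaks covered 93.1, 104.1 and 84.1 Mb at P5 and 98.3, 91.8 and 98.1 Mb at P7, again with overlap (exact permutation p = 0.8). The direction of this difference turned when the same number of top peaks was taken from each sample, with a difference of -3.25 Mb, and when P5 replicate 3 was left out, with -2.57 Mb. The median peak width was 378, 401 and 374 bases at P5 and 392, 334 and 362 bases at P7, and it did not separate the groups (exact permutation p = 0.4). Long peaks of over 1000 bases made up 5.43%, 7.51% and 5.02% of peaks at P5 and 6.88%, 1.92% and 4.03% at P7, with P7 replicate 2 the lowest of all 6. The highest -log10 p of any peak was 2049, 2122 and 1869 at P5 and 4303, 3419 and 5265 at P7, so the strongest peak of each P7 sample lay above that of each P5 sample (exact permutation p = 0.1, the smallest possible).

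Depth was recovered from the peak lists, because the deposited fold enrichment and -log10 p of a peak fix the whole number of read ends stacked at its summit. With the default effective genome size of MACS2 for mouse, which is an assumption here, the totals were 59.6, 69.1 and 53.0 M read ends (M for mega) at P5 and 61.5, 50.3 and 54.8 M at P7, so the sample with the most peaks, P7 replicate 2, had the fewest read ends. Of all pairs of samples, the lists overlapped most between P5 replicates 1 and 2, with 0.781 of their joint regions shared, and least between P5 replicate 3 and P7 replicate 2, with 0.666. The mean shared fraction was 0.740 within a passage and 0.713 between passages. This difference of 0.0274 had a one-sided exact permutation p of 0.1, the smallest that the 10 splits of 3 and 3 samples allow, and p rose to 0.2 without P5 replicate 3 or without P7 replicate 2. P7 replicate 1 stood between the groups, since it shared more regions with P5 replicates 1 and 2 (0.746 and 0.750) than with P7 replicate 3 (0.729). For the share of peaks on single chromosomes, the lowest Benjamini-Hochberg adjusted exact permutation p was 0.6. As 3 against 3 samples cannot go below 0.1 before adjustment, this test could not have called any chromosome. The shares did not overlap between the passages for chromosomes 2 and 4, lower at P7, and for chromosome X, higher at P7.

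**Figure D1:**
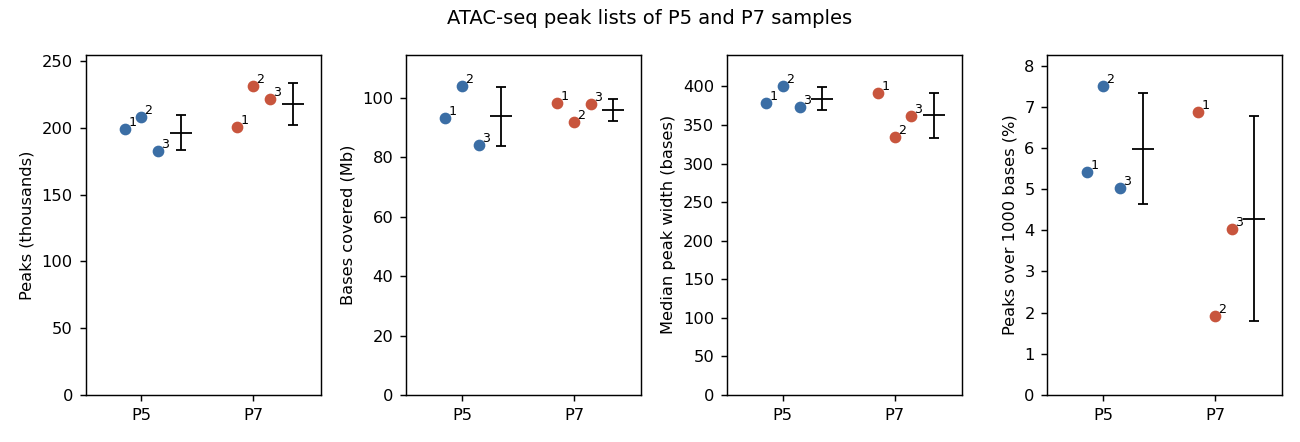
Peaks per sample, bases covered by peaks (Mb), median peak width (bases) and the percent of peaks over 1000 bases, with a point for each of the 3 P5 and 3 P7 samples (numbered by replicate) and the mean and SD beside them. The groups overlap in all 4 measures, and P7 replicate 2 has the most peaks (231558) and the smallest share of long peaks (1.92%).

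At P7, more regions appeared than disappeared, and both classes were made up mostly of weak peaks. Of the 14823 gained regions, 3835 had a peak in all 3 P7 samples, 6294 in replicates 2 and 3, 2731 in replicates 1 and 2, and 1963 in replicates 1 and 3. P7 replicate 1 thus lacked the largest group of gained regions. Of the 6060 lost regions, 1393 had a peak in all 3 P5 samples, 2601 in replicates 1 and 2, 1328 in replicates 2 and 3, and 738 in replicates 1 and 3. The excess of gained over lost regions depended on the number of peaks per sample, because taking the 182402 strongest peaks of each sample gave 8179 gained and 8501 lost regions. With a sample left out, over 60% of the remaining 2 means both of them and absence rests on 2 samples, so the rule changed as well. There were 10228 gained and 9572 lost regions without P7 replicate 1, 5802 and 9557 without P7 replicate 2, and 6582 and 9038 without P7 replicate 3. Without P5 replicate 1, 2 or 3 there were 19717, 22980 and 18447 gained and 2741, 2187 and 4029 lost regions. By the same rule, 28381 regions were gained and 1848 lost from P3 to P5, a comparison that shares the P5 samples, and 5624 were gained and 15685 lost from P1 to P3.

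The strength of a peak was expressed as a percentile, the rank of its -log10 p among all peaks of the same sample from 0 to 100. Gained regions had median percentiles of 16.1, 20.6 and 20.2 in the 3 P7 samples, and lost regions had 13.8, 15.6 and 14.9 in the 3 P5 samples, so both classes were made up mostly of weak peaks. Promoters, within 1000 bases of a transcription start, made up 7.91% of all regions but 2.64% of gained and 5.96% of lost regions. Introns held 45.5% of gained and 45.8% of lost regions against 44.2% of all, and 49.3% of gained and 45.4% of lost regions were intergenic against 45.2% of all. The median distance to the nearest start was 36580 bases for gained, 32036 for lost and 29766 for all regions. Gained regions were poorer in G and C, with a median of 44.8% in the summit window against 46.8% for lost and for all regions. Regions with a peak in 2 or 3 of the 6 samples that came from both passages had a promoter share of 4.22% and a median G and C content of 46.3%. Their median percentiles were 13.4 to 14.4 in the P5 samples and 14.2 to 17.8 in the P7 samples, so weak peaks were not particular to gained and lost regions. Lost regions had a larger promoter share than these regions, and gained regions a smaller one.

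To follow these regions back in time, their peaks were looked up in the 4 P1 and 3 P3 samples. No P1 or P3 sample had a peak in 8582 gained regions (57.9%), in 2025 lost regions (33.4%) and in 24.1% of all regions. The share was 41.4% for the similarly weak regions with a peak in 2 or 3 of the 6 samples from both passages. Lost regions thus lay below these weak regions and gained regions above them. A peak in any P1 sample was present in 35.6% of gained and 54.7% of lost regions, and a peak in any P3 sample in 16.4% and 41.1%. In the weak regions from both passages these shares were 48.5% for P1 and 31.5% for P3. Single P1 samples had a peak in 15.2% to 23.3% of the gained regions, while single P3 samples had a peak in 5.95% to 8.41% of them. The same order held for all regions, of which single P1 samples had a peak in 56.3% to 59.0% and single P3 samples in 48.9% to 52.1%, and the P3 lists were shorter (142384 to 155681 peaks against 168982 to 186562 at P1). Single samples of P1 had a peak in 31.2% to 34.0% of lost regions and those of P3 in 21.2% to 22.3%. P1 has 4 samples and P3 has 3, which raises the share for any P1 sample but not the shares for single samples.

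**Figure D2:**
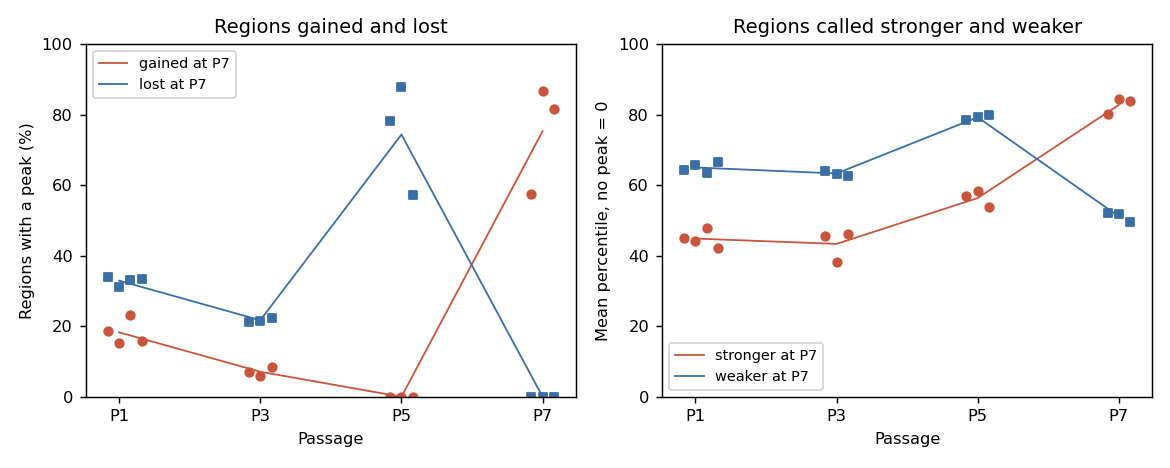
The left panel gives the percent of gained (orange) and lost (blue) regions with a peak in each sample of P1, P3, P5 and P7, and the right panel gives the mean percentile (0 where there is no peak) of regions called stronger and weaker. Points are samples and lines join the means of passages, and 0% at P5 for gained and at P7 for lost regions follows from their definition.

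The regions present in all 6 samples were then tested for a change of percentile with limma, and a region was called with a Benjamini-Hochberg adjusted p under 0.05 and a difference of at least 10 percentile points. At P7, 709 regions (0.521% of 136096) were stronger and 111 (0.0816%) were weaker, and 25282 regions had an unadjusted p under 0.05. The stronger regions rose by a median of 24.5 points (range 10 to 58.6), which was 1.13 on the log2 scale of summit pileup over background. The weaker regions fell by 24.6 points in the median (range -10.2 to -63.0), or by 1.16 on that log2 scale. Over all shared regions the median difference was 1.37 points, and the middle 90% lay between -13.7 and 21.0 points. Most stronger regions thus moved from the middle of the ranking to its upper part. The mean percentile of the stronger regions was 56.9, 58.3 and 53.8 in the P5 samples and 80.2, 84.3 and 83.7 in the P7 samples, and that of the weaker regions was 78.5, 79.3 and 79.9 at P5 and 52.0, 51.7 and 49.6 at P7.

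The number of called regions was sensitive to the samples and to the scale. No region was called by limma when any P7 replicate was left out, with 17582 to 28729 regions at an unadjusted p under 0.05, and 22, 162 and 528 were called stronger without P5 replicate 1, 2 and 3, with 0, 2 and 26 weaker. On the fold enrichment scale no region was called either, with 20597 at an unadjusted p under 0.05. The excess of stronger over weaker regions differed between scales. It was 1500 against 210 for log2 summit pileup over background, 1081 against 659 when ranks were taken among the shared regions alone, 810 against 500 with the same number of top peaks, and 2922 against 3280 for the log2 pileup centred on the median of each sample, a setting chosen after seeing the data.

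**Figure D3:**
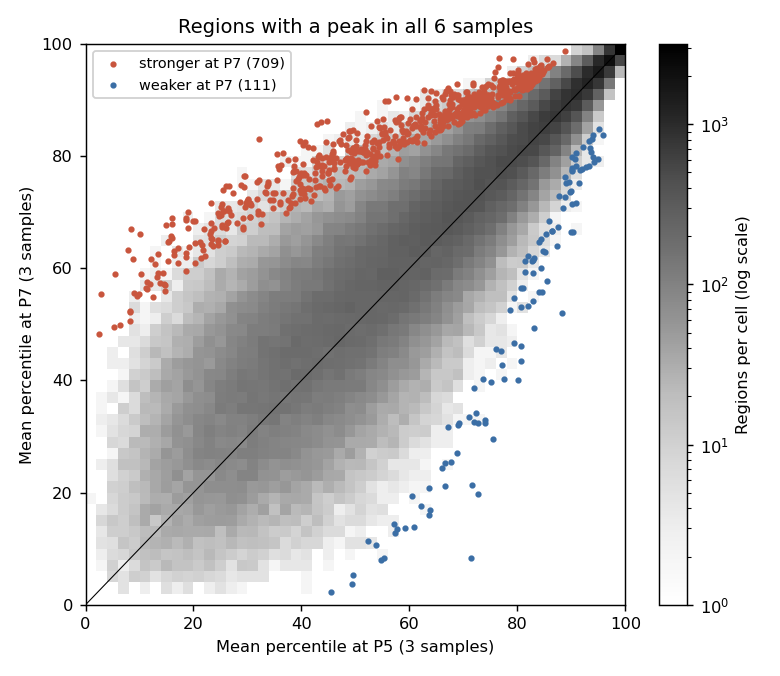
Mean percentile of each of the 136096 shared regions at P5 (x axis) and P7 (y axis), each over 3 samples, as a grey density on a log scale with the 709 stronger regions in orange and the 111 weaker regions in blue. The line marks equal percentiles, and called regions lie along the edges of the cloud.

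The tested regions, which were required to have a peak in all 6 samples, were also looked up at P1 and P3. No P1 or P3 sample had a peak in 1.53% of all tested regions, in 16 (2.26%) of the stronger and in 0 of the 111 weaker regions. With regions without a peak set to 0, the mean percentile of the stronger regions was 42.3 to 47.9 in the P1 samples and 38.3 to 46.2 in the P3 samples, below each P5 sample. For the weaker regions it was 63.4 to 66.5 at P1 and 62.6 to 64.1 at P3, below P5 and above P7. All tested regions together had 54.7 to 56.5 at P1, 49.0 to 51.9 at P3, 62.8, 64.8 and 59.8 at P5 and 63.1, 66.4 and 65.4 at P7, so lower values before P5 were shared by all tested regions. The P5 and P7 values entered the choice of these regions, so these levels are given as a description.

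The widths of shared regions showed no called difference. No region was wider (0.0%) and none narrower (0.0%) at P7 with an adjusted p under 0.05 in limma and a change over 1.5-fold, and 9508 of the 136096 had an unadjusted p under 0.05. The median difference of log2 width was -0.02 and the middle 90% lay between -0.44 and 0.37. When all 13 ATAC-seq samples shared the fit, 20 regions were wider and 109 narrower. The median width of the stronger regions was 402 bases at P5 and 471 bases at P7, and that of the weaker regions was 603 and 462 bases.

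To characterize the changed regions further, the summit window of 201 bases was searched on both strands for short motifs, which the choice of the regions did not use. AP-1 matches were in 34.0% of gained and 53.5% of stronger regions, against 15.7% of lost, 18% of weaker and 28.8% of all regions. Their share thus rose from lost to gained and from weaker to stronger regions, with that of all regions between. RUNX matches ran the other way, with 31.0% of lost and 44.1% of weaker regions against 20% of gained, 15.8% of stronger and 23.3% of all regions. EBF matches were in 7.82% of lost and 18% of weaker regions, and in 1.78% of gained, 0.987% of stronger and 4.11% of all regions. TEAD matches were most frequent in weaker regions, at 39.6%, and were in 23.3% of stronger, 23.2% of lost, 18% of gained and 20.3% of all regions. C/EBP matches (TTGCNNAA) were in 16.2% of stronger, 12.5% of gained, 9.77% of lost and 2.70% of weaker regions against 10.9% of all. CTCF matches (AGGGGGC) were in 1.41% of stronger, 1.92% of gained, 3.27% of lost and 6.31% of weaker regions against 3.45% of all. Stronger and weaker regions could only come from regions with a peak in all 6 samples. Of those regions 32.1% held an AP-1, 22.9% a RUNX, 4.6% an EBF and 21.6% a TEAD match. C/EBP and CTCF matches were in 10.9% and 4.42% of them.

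The shares of the remaining motifs were as follows. NFY matches (CCAAT) were in 24% of gained and 25.3% of lost regions against 24.5% of all. NF-kB matches (GGANTTTCC) were in 0.850% of gained, 1.07% of lost, 1.27% of stronger and 3.6% of weaker regions against 1.02% of all. E2F matches (TTCCCGC) were in 0.391% of gained, 0.891% of lost and 0.881% of all regions, and the other E2F motif (TTGGCGC) in 0.189%, 0.561% and 0.523%. ETS matches (CCGGAAG) were in 0.769% of gained and 1.22% of lost regions against 1.59% of all, CRE matches (TGACGTCA) in 0.405% and 0.330% against 0.562%, and homeobox matches (TAATTA) in 4.28% and 5.21% against 4.23%. Over 1000 bases from a start, the E2F motifs were in 0.333% and 0.173% of gained, 0.737% and 0.439% of lost and 0.579% and 0.361% of all regions. In stronger and weaker regions the E2F, ETS, CRE and homeobox motifs were in 0.0% to 5.41%.

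The difference in AP-1 content held away from promoters and under stricter definitions. Among regions more than 1000 bases from a start, AP-1 matches were in 34.3% of gained, 16.2% of lost and 30.3% of all regions. Among regions with a peak in all 3 samples of a passage and in none of the other, they were in 37.0% of gained and 14.0% of lost regions, and EBF matches in 1.38% and 10.8%. Across the definitions of gained and lost regions tried, AP-1 shares ranged from 32.5% to 37.8% of gained and from 12.8% to 18.8% of lost regions. Regions with a peak in 2 or 3 samples from both passages had an AP-1 share of 24.5%, between those of lost and gained regions. Within 20 bases of the summit, AP-1 matches were in 14.9% of gained, 21.0% of stronger, 6.06% of lost and 5.41% of weaker regions against 12.3% of all. In the weaker regions the matches near the summit were of TEAD (19.8% against 6.44% of all), RUNX (17.1% against 7.07%) and EBF (6.31% against 1.12%). For comparison, 7.81% of the 32851 RefSeq promoters (from 250 bases before to 50 after the start) held an AP-1 match, 14.7% a TEAD, 16.8% a RUNX and 6.56% an EBF match.

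**Figure D4:**
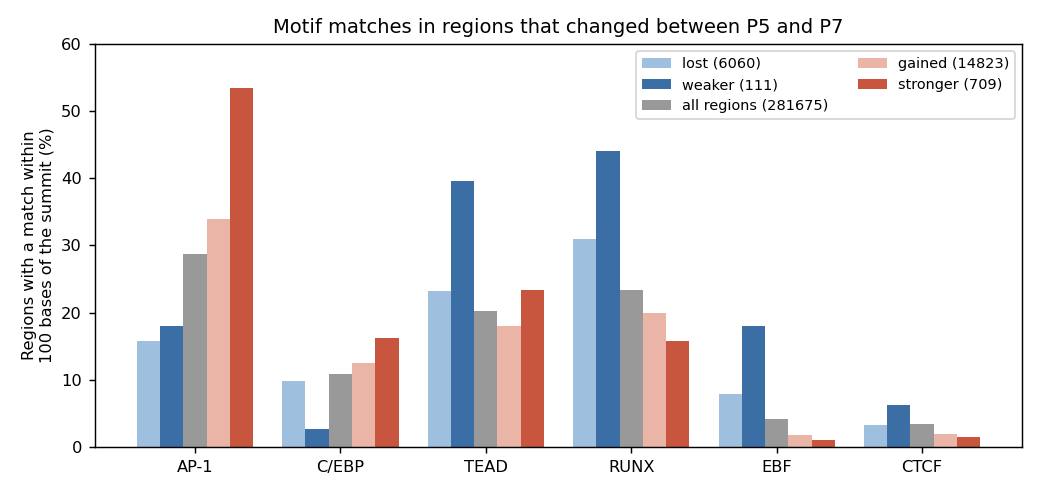
Percent of regions with a match to each of 6 motifs within 100 bases of the summit, for lost, weaker, all, gained and stronger regions, with the number of regions in the legend. AP-1 bars rise from lost (15.7%) to stronger (53.5%), and RUNX and EBF bars are highest in weaker regions (44.1% and 18%). Stronger and weaker regions come from the regions with a peak in all 6 samples, of which 32.1% held an AP-1 match.

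The same contrast was seen in the ranking of all shared regions, with no class chosen. Regions with an AP-1 match ranked above those without, by a difference in median percentile of 5.79, 4.29 and 3.53 points in the P5 samples and 6.37, 7.93 and 7.53 points in the P7 samples. Each P7 value exceeded each P5 value, which is the smallest two-sided exact permutation p possible (0.1). EBF regions moved the other way, from 4.63, 3.54 and 5.89 points above the rest at P5 to 0.44, -1.22 and -0.83 points at P7, without overlap. RUNX regions went from -0.18, 0.13 and 0.53 to -1.75, -1.41 and -1.29 points, and CTCF regions from 4.61, 4.62 and 5.89 to 2.38, 1.5 and 2.64 points, also without overlap. For TEAD regions the values were 2.38, 2.17 and 2.10 at P5 and 0.63, 2.00 and 1.42 at P7, which differed by less but did not overlap. C/EBP regions overlapped between the passages. As 6 motifs were compared, the smallest possible p of 0.1 passes no threshold for any of them.

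Combinations of motifs showed which matches went with called changes. Of the 43713 shared regions with an AP-1 match, 379 (0.867%) were stronger and 20 (0.0458%) weaker, against 0.521% and 0.0816% of all shared regions. Among 8561 regions with both TEAD and AP-1 matches, 75 were stronger and 3 weaker, whereas among 20849 regions with TEAD and no AP-1 match, 90 were stronger and 41 weaker. Of 21670 regions with RUNX and no AP-1 match, 52 were stronger and 44 weaker. EBF without AP-1 was the only combination listed with more weaker than stronger regions, 18 (0.398%) against 4 (0.0884%) of 4524. The share of all peaks of a sample that held an AP-1 match was 30.03%, 29.2% and 28.4% at P5 and 30.4%, 30.6% and 30.3% at P7, a narrow range in which each P7 value lay above each P5 value. It was 30.22% to 31.49% in the P1 samples and 30.11% to 31.07% in the P3 samples, so the P7 shares lay within the earlier range. The share with an EBF match was 4.75%, 4.58% and 4.78% at P5 and 4.09%, 3.90% and 3.94% at P7.

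Among the named gained regions, the strongest lay in an intron of Ppp4r3b, a regulatory subunit of protein phosphatase 4, at chr11:29209773-29210131, with percentiles of 71.8, 66.5 and 58.9 in the P7 samples. No sample of P1, P3 or P5 had a peak there. The region in an intron of Zfp119a, a zinc finger gene, at chr17:55850582-55850908 had percentiles of 63.1, 62.4 and 60.6 and likewise no peak before P7. The other gained regions were near Dgkh (diacylglycerol kinase), Ifit2 (an interferon-induced gene), Ing5 (a chromatin reader), Mtf2 (a Polycomb partner), Ccndbp1 (a cyclin D binding protein) and Mtmr4 (a lipid phosphatase), with percentiles between 38.5 and 72.2. The region near Ccndbp1 had a peak in all 4 P1 samples (28.1 to 52.7) but in none of P3 or P5.

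The strongest of the named lost regions lay 17653 bases from the start of Arhgap20, a GTPase-activating protein, at chr9:51747482-51747698. Its percentiles were 74.1, 79.2, 99.8 and 93.4 at P1 and 77.1, 66.1 and 77.9 at P5, with no peak in any P3 or P7 sample. The peak was 217 bases wide in each P5 sample, and it was absent at both P3 and P7. The intronic region of Tspo, a protein of the outer mitochondrial membrane, at chr15:83567757-83568047 had percentiles of 64.6, 71.0 and 54.4 at P5. Among the other lost regions, that near Irgm1, an interferon-inducible GTPase, had a peak in each sample of P1, P3 and P5 (55.9 to 70.6). The remaining ones were at Sybu, Ptprf, Nfkb2 (an NF-kB subunit), Arhgef1 and Adgrd1, with P5 percentiles from 39.6 to 62.1, and that at Arhgef1 was the only promoter among the 8.

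Among the named stronger regions, the largest rise was near Perp, a membrane protein of desmosomes, at chr10:18894407-18895023, 49336 bases from its start. Its percentiles were 37.7, 1.09 and 8.99 at P5 and 53.2, 74.5 and 79.2 at P7, a difference of 53.0 (SE 11.0, adjusted p = 0.0464 in limma). At its summit 35, 16 and 17 read ends were stacked in the P5 samples and 45, 73 and 88 in the P7 samples. Perp was also called in RNA-seq, which held for none of the 31 other genes named for gained, lost, stronger and weaker regions. Its expression was 0.840, 1.38, 0.646 and 1.65 CPM in the 4 P5 libraries and 5.27, 6.17, 4.46 and 5.27 CPM in the 4 P7 libraries, a log2 fold change of 2.22 (SE 0.42, edgeR adjusted p = 0.00118). Perp is among the 8 keratinocyte markers checked, 7 of them measured, whose summed level was 3.10 to 6.69 CPM at P5 and 9.61 to 13.2 CPM at P7. Of this list Krt5 and Krt14 were at 0 in 7 of the 8 libraries each and at most 0.153 CPM in the other. Dsp was at 0.646 to 2.32 CPM at P5 and 1.37 to 5.64 CPM at P7, Krt10 at 1.42 to 2.58 and 1.93 to 3.13 CPM, and Epcam at up to 0.132 and up to 0.297 CPM. The part of keratinocytes in the result was not tested.

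The region in an intron of Slc25a15, a mitochondrial ornithine carrier, at chr8:22378572-22379246 rose from 15.4, 22.8 and 6.44 to 61.7, 79.4 and 62.1, by 52.8 points (SE 9.18, limma adjusted p = 0.0354). The other 6 stronger regions named were near Fyb2, Jak2 (a cytokine receptor kinase), Cap2 (an actin regulator), Sucla2 (a citrate cycle enzyme), Tdp1 (a DNA repair enzyme) and Diaph2 (a formin), with rises of 46.8 to 51.1 points. Among the weaker regions, that near Nnat, an imprinted gene of a small membrane protein, at chr2:157555464-157556384 fell from 56.6, 69.8 and 64.9 to 28.6, 5.75 and 16.3. Its difference was -46.9 points (SE 9.28, limma adjusted p = 0.0429), and its width was 438, 913 and 443 bases at P5 and 388, 222 and 311 at P7. The region near Glrx, a glutaredoxin, at chr13:75833478-75834064 fell from 66.4, 72.0 and 61.6 to 17.7, 28.0 and 17.6. It had lain between 29.9 and 48.8 at P1 and between 35.4 and 42.3 at P3, so P5 was its highest passage. The region near Cdon, a co-receptor of Hedgehog signals, fell by 44.7 points, and Cdon expression was 96.8, 110, 100 and 71.2 CPM at P5 and 52.0, 55.9, 65.9 and 49.7 CPM at P7, which did not reach the fold required (log2 fold change -0.76). The other weaker regions were near Hgsnat (a lysosomal enzyme), Pdk1 (a kinase of pyruvate dehydrogenase), Dpysl4, Ppfibp2 and Dip2c. The P5 and P7 values did not overlap in any of these 16 regions, which were picked for the largest differences in these values. All 16 calls were lost when any P7 sample or P5 replicate 1 was left out. Leaving out P5 replicate 2 lost 15 of them, and leaving out P5 replicate 3 lost 11. All 16 were also lost on the fold enrichment scale. The same held when all regions with a peak in at least 2 samples were tested, with missing peaks set to percentile 0. All 16 held with log2 summit pileup over background and with the replicate number as a block.

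**Figure D5:**
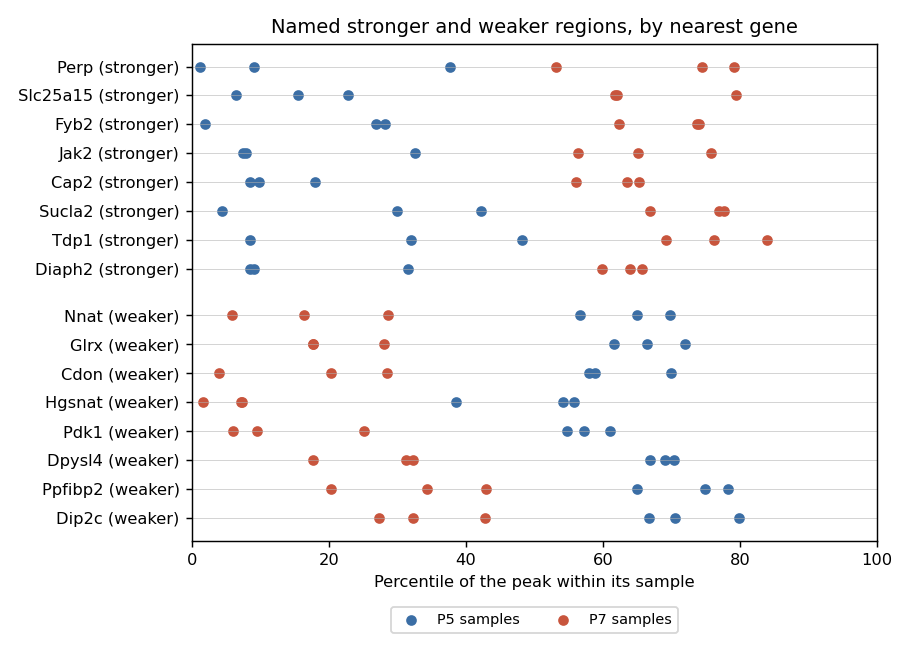
Percentile of the peak in each of the 3 P5 (blue) and 3 P7 (orange) samples for the 8 stronger and 8 weaker regions named by the rule, labelled by nearest gene. The 2 groups of points do not overlap in any line, and the regions were picked for the largest differences in these same values.

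Genes around which changed regions clustered were counted within 50000 bases of a start. Nebl, an actin-binding protein gene, was the nearest gene of 9 gained regions out of 39 regions, Samd4 of 7 of 49, and Erc2, Osbp2 and Phactr1 of 6 each. The most lost regions were near Ptprg, a receptor phosphatase, and Trabd2b, a Wnt-inhibiting protease, with 5 each, followed by Hrh1 (a histamine receptor), Itga9 (an integrin) and Masp1 (a complement protease) with 4 each. Ptprg and Itga9 also had 4 and 5 gained regions. None of these 10 genes was called in RNA-seq, and Nebl expression was 0.969 to 2.32 CPM at P5 and 0.772 to 3.93 CPM at P7.

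To relate accessibility to expression, the P7 and P5 RNA-seq libraries (n = 4 each) were compared with edgeR, and a gene was called at more than a 2-fold change (1 on the log2 scale) when its adjusted p was below 0.05. Of 13442 genes tested, 160 (1.19%) were higher and 307 (2.28%) lower at P7. Of 3742 tested genes nearest to a gained region within 50000 bases, 54 (1.44%) were higher and 84 (2.24%) lower, shares close to those of all genes. Of 1938 genes nearest to a lost region, 25 (1.29%) were higher and 62 (3.20%) lower. For starts within 1000 bases of the region, 6 of 203 genes (2.96%) at gained regions were higher and 3 (1.48%) lower, and 4 of 195 genes (2.05%) at lost regions were higher and 8 (4.10%) lower. These shares at starts rest on 3 to 8 genes each. Of the 160 genes higher in RNA, 33.8% had a gained and 15.6% a lost region as nearest gene, and of the 307 lower genes 27.4% and 20.2%. Among all tested genes these shares were 27.8% and 14.4%. The groups differed in regions per gene, with a median of 8.5 for higher, 6.0 for lower and 7.0 for all tested genes. Counted by region, 73 of 1524 were gained for higher, 109 of 2493 for lower and 5075 of 114992 for all tested genes. Of the same regions 32, 76 and 2316 were lost. Genes with at least 3 gained or stronger regions and no lost or weaker region numbered 322, and 213 of them were tested in RNA-seq. Of these 0 were higher and 3 (1.41%) lower, against 1.19% and 2.28% of all tested genes. In the reverse case there were 27 genes, of which 21 were tested, 1 was higher and 0 were lower.

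Stronger regions were nearest to 228 tested genes, of which 4 (1.75%) were higher and 3 (1.32%) lower, and weaker regions to 44, of which 0 were higher and 3 (6.82%) lower. These genes were listed after their values were seen. Besides Perp, the higher genes were Fabp3, a fatty acid binding protein, Aldh1a7, an aldehyde dehydrogenase, and Ankrd1, a nuclear ankyrin protein and target of YAP and TEAD. The region near Ankrd1 at chr19:36150434-36151207, 30590 bases from its start, had percentiles of 26.3, 46.2 and 45.6 at P5 and 69.2, 76.9 and 81.7 at P7 (limma adjusted p = 0.0442). Ankrd1 expression was 13.1, 11.8, 10.4 and 7.15 CPM at P5 and 22.7, 28.8, 24.5 and 22.6 CPM at P7, so both measures rose without overlap of the passages (edgeR adjusted p = 1.95e-05). The region 9426 bases from the start of Fabp3 rose from 20.1, 44.2 and 24 to 68.1, 79.8 and 75.5, and its expression from 6.78 to 9.82 CPM at P5 to 17.7 to 20.9 CPM at P7. Zfp385b (a zinc finger protein), Tspan18 (a tetraspanin) and C4b (a complement component with a near-identical copy, so its counts are uncertain) were lower in RNA although a region near each was stronger. Of the 3 genes lower with a weaker region, 2 had the region at their start, 1 of them on a chromosome that the naming rule leaves out for single regions. The other was Kif21b, a kinesin, with a region at chr1:136131060-136131573, with percentiles of 67.5, 78.7 and 79.2 at P5 and 45.8, 37.2 and 36.4 at P7. Kif21b expression was 47.7, 55.0, 50.3 and 45.7 CPM at P5 and 15.6, 25.2, 23.9 and 24.9 CPM at P7 (edgeR adjusted p = 2.71e-05). Ripor2 fell from 4.33 to 4.84 CPM at P5 to 2.00 to 2.31 CPM at P7, with a weaker region 11001 bases from its start.

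Cell cycle genes were lower in expression while regions at their starts remained. Of 24 replication and mitosis genes, 15 were lower in RNA-seq and 0 higher, among them Mki67, a proliferation marker, with 118, 100, 63.8 and 54.3 CPM at P5 and 20.2, 18.2, 25.7 and 19.2 CPM at P7 (log2 fold change -2.01, edgeR adjusted p = 1.58e-06). The peak at the start of Mki67 had percentiles of 82.8, 80.8 and 85.3 at P5 and 88.3, 90.5 and 91.3 at P7, a difference of 7.06 points (limma adjusted p = 0.107). That of Mcm6 went the other way, from 85.1, 79.0 and 87.2 to 78.4, 82.9 and 74.8, with overlap (-5.03 points, limma adjusted p = 0.444). Of 75 tested regions near the 24 genes, 36 ranked higher at P7, and the median difference was -0.0874 points. All 24 genes had a region at the start, and of their 131 nearby regions 6 were gained, 3 lost, 0 stronger and 0 weaker. Only 75 of the 131 were tested for strength, and of all tested regions 0.521% were stronger and 0.0816% weaker, so these 0 counts say little. Start peaks at the top of the ranking, such as that of Ccna2 (99.4, 99.4 and 99.3 at P5), could not rise by the 10 points required. Among 7 CDK inhibitors, which arrest the cycle, only Cdkn2a was higher, with 64.4, 72.7, 102 and 166 CPM at P5 and 269, 224, 179 and 225 CPM at P7. Cdkn2a had 3 regions at its starts and 1 gained region nearby. The start region at chr4:89294261-89295957 had percentiles of 89.5, 89.6 and 93.8 at P5 and 87.1, 84.2 and 92.1 at P7. These values overlapped (limma adjusted p = 0.117). They describe this region alone, and the other start regions of Cdkn2a are not given here.

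Few genes of the factors whose motifs differed were called in RNA-seq. Of 14 AP-1 subunits and partners 13 were tested, and only Bach2, a repressor that binds AP-1-like sites, was called, from 1.31 to 1.59 CPM at P5 to 0.153 to 0.772 CPM at P7 (log2 fold change -1.62, edgeR adjusted p = 0.00523). Fos was at 10.9, 11.2, 14.6 and 10.5 CPM at P5 and 20.5, 19.4, 11.7 and 17.5 CPM at P7, below the fold required (log2 fold change 0.55, adjusted p = 0.0196). Of 167 regions near this list 3 were gained and 5 lost, which were 1 gained each at Fos, Jun and Atf3 and 1 lost each at Fosl2, Jun, Batf3, Bach1 and Bach2. In the TEAD and Hippo list 11 of 13 genes were tested and only Ankrd1 was higher, and 6 of 131 regions were gained and 4 lost. Of 18 mesenchymal transcription factors 17 were tested and only Ldb2, a LIM domain cofactor, was lower (log2 fold change -2.16), with 7 gained and 14 lost of 368 regions. Runx1 had 4 lost and 2 gained regions and an expression of 61.6 to 94.5 CPM at P5 and 54.5 to 63.2 CPM at P7. Ebf1 was at 117 to 151 CPM at P5 and 92.1 to 114 CPM at P7, a log2 fold change of -0.40 that did not reach the fold required. The start peak of Ebf3 had percentiles of 65.1, 65.9 and 62.0 at P5 and 38.9, 33.0 and 49.9 at P7, without overlap but short of a call (limma adjusted p = 0.12).

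Secreted and matrix genes were described in the same way. Of 25 secreted inflammatory factors 16 were tested and Il6, Il11 and Ptgs2, the inducible prostaglandin synthase, were higher, while 7 of 278 regions were gained, 7 lost and 1, near Ccl2, weaker. Ptgs2 rose from 64.3, 67.7, 48.3 and 35.9 to 215, 302, 297 and 211 CPM (log2 fold change 2.24, edgeR adjusted p = 8.78e-07) and had 1 gained region nearby. For 12 NF-kB genes edgeR called no change, with 1 gene at an unadjusted p under 0.05, and 3 regions were gained and 8 lost of 131, with 4 of the lost ones near Tnfaip3, a feedback inhibitor. Of 21 interferon-stimulated genes 20 were tested and Ifit1, Mx2, Oasl2 and Usp18 were lower, and 6 of 108 regions were gained, a share near that of all regions, and 1 lost. Of 15 metalloproteinases and inhibitors 14 were tested and only Mmp10 was higher, with 6 gained and 2 lost of 168 regions. Among 20 matrix genes only Eln, the gene of elastin, was lower, and 24 of 524 regions were gained and 16 lost. At the start of Col1a2, a chain of type I collagen, the percentiles were 95, 93.6 and 94.1 at P5 and 85.7, 85.5 and 84.8 at P7 (limma adjusted p = 0.0341), a difference of -8.93 points that fell short of the 10 required, while its expression was 8600 to 10800 CPM at P5 and 8880 to 9410 CPM at P7. In the list of Wnt, BMP and TGF-beta signals 17 of 19 genes were tested, Wif1, Wnt11, Inhba, Grem1 and Fst were higher and Sfrp2 lower, and 11 of 277 regions were gained, 6 lost and 1, near Sfrp1, stronger. Of 11 smooth muscle genes Cnn1 and Myh11 were higher, with 10 gained and 3 lost of 156 regions. Over all regions 5.26% were gained and 2.15% lost. Near the genes tested in RNA-seq, 5075 of 114992 regions were gained and 2316 lost. The counts of each list are read against these shares.

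The peaks at the starts of the genes with the largest RNA changes mostly overlapped between the passages. The 5 highest were Cd24a, Ptgs2, Cd53, Stc1 and Ereg, with log2 fold changes from 1.6 to 2.35, and the 5 lowest were Cbln1, Ldb2, Sfrp2, Oasl2 and Mki67, from -2.01 to -3.40. Of these 10 genes the start percentiles of Mki67 alone did not overlap between P5 and P7. The start peak of Cd53, a tetraspanin, had percentiles of 81.3, 89.7 and 85.1 at P5 and 88.9, 89.7 and 84.0 at P7, while its expression rose from 16.7 to 23.9 CPM at P5 to 75 to 87.8 CPM at P7. Gained regions were near Ptgs2 (1), Ereg (2), Sfrp2 (1) and Mki67 (1), and lost regions near Mki67 (2). Markers of the labelled cell type were high throughout, with 10 fibroblast markers summing to 33680 to 42460 CPM at P5 and 36330 to 39160 CPM at P7, and 0 of them called by edgeR (3 at an unadjusted p under 0.05). The summed level of 10 macrophage markers was 22.3 to 32.0 CPM at P5 and 35.4 to 53.4 CPM at P7, with Csf1r higher and Ptprc, Adgre1 and Itgam under 1 CPM in each library. The sum of 7 endothelial markers was 16.4 to 19.3 CPM at P5 and 8.86 to 12 CPM at P7, with Pecam1, Vwf and Cldn5 lower. Skeletal muscle markers summed to 29.6 to 56.5 and 38.8 to 109.6 CPM and melanocyte and Schwann markers to 56.6 to 96.1 and 58.7 to 134.7 CPM. In bulk samples fewer cells of a type and less RNA per cell cannot be told apart, and the part of other cell types in the chromatin differences was not tested.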

How the data were processed

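ATAC-seq peak lists of P5 and P7 (3 samples each) were compared, with those of P1 and P3 and the RNA-seq of all 4 passages (4 libraries each) as reference. According to the methods, the authors ran a published ATAC-seq pipeline that aligned reads with Bowtie2, discarded duplicates with Picard and called peaks per sample with MACS2. The submitters' processing notes name Bowtie2 2.3.5.1 and mm10 without saying for which assay. The deposited fold enrichment (a ratio to the background of the same sample), -log10 p and -log10 q belong to each summit, and no list held a -log10 p below 2. The deposited integer score and summit offset were read as in the narrowPeak format. For RNA-seq the authors trimmed with Trimmomatic 0.39, aligned with HISAT2 2.2.1 and counted without regard to strand with HTSeq 0.12.4, and the deposited values are raw counts of 24984 genes, with 13866009 to 15725823 counts per library at P5 and P7. Overlapping genes therefore have uncertain counts.

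Entries with the same start and end were merged, keeping the highest -log10 p. Peaks of the 6 samples that shared at least 1 base were then merged into regions. Summits were assigned to exons and introns with bedtools 2.31.1. Percentiles of -log10 p and log2 widths of shared regions were tested with limma 3.58.1, and counts with edgeR 4.0.16 (filterByExpr, TMM, quasi-likelihood test, 16 libraries in 1 fit) in R 4.3.3, both with Benjamini-Hochberg adjustment. Values per sample were compared with two-sided exact permutation tests unless given as one-sided. Whole read ends at the summits were recovered from fold enrichment and -log10 p within 0.05, for at least 99.9991% of the summits in each sample. These scales have no error per peak, so only the spread between samples was used. Genes were matched to RefSeq GRCm38, the assembly of mm10, with 24463 by symbol and 418 by an older symbol, and coordinates count from 1. Motifs were searched with pysam 0.24.0. The scripts were tested on simulated data.

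The regions named were, per class, up to 8 with the largest change, within 50000 bases of a gene tested in RNA-seq and at most 1 per gene, leaving out genes named by clone or model number, multigene families and chromosome 18. The genes named were those 5 with the most gained and 5 with the most lost regions, the 5 highest and 5 lowest called in RNA-seq whose libraries did not overlap and whose average log2 CPM was 3 or more, and the members of 12 lists. The comparison, the lists and the rules were chosen with earlier results of these data known. The alternatives were other peak thresholds, numbers of peaks, overlaps and scales, all 13 samples in 1 fit, the replicate number as a block, no filter on low counts, DESeq2 1.42.0 or its size factors, and leaving out each sample.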

Additional observations from a re-analysis of the deposited data

Results flagged for a closer look

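In 5 of 166 groups of 4 RNA-seq libraries of the named genes, 1 library stood apart from the other 3 by Dixon's test at the 95% level, and chance gives about 1 in 20 groups. Fos was at 14.6 CPM in P5 replicate 3 and at 10.5 to 11.2 CPM in the other P5 libraries. Fyb2 was at 4.90 CPM in P7 replicate 4 and at 3.63 to 3.77 CPM in the other P7 libraries. In P7 replicate 1, Ptprf was at 16.6 CPM against 26.7 to 28.3, Samd4 at 180.0 CPM against 276 to 289 and Tead1 at 279 CPM against 406 to 417 in the other P7 libraries. These RNA-seq libraries are not the ATAC-seq samples of the same number.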

How the results depend on the processing

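With the same number of top peaks, 8179 regions were gained and 8501 lost. Over samples left out, gained regions ranged from 5802 to 22980 and lost regions from 2187 to 9572, and with a peak in all 3 replicates required they numbered 3835 and 1393. Regions stronger and weaker at P7 ranged from 0 to 528 and from 0 to 26 over samples left out. They numbered 1081 and 659 with percentiles among shared regions, 2337 and 1641 with normal scores, 0 and 0 with fold enrichment, 1500 and 210 with log2 summit pileup over background, 2922 and 3280 with this pileup centred on the sample's median (chosen after seeing the data), and 407 and 337 with all 13 samples in 1 fit. Over the 228917 regions with a peak in at least 2 samples they numbered 55 and 8. This rule was looser and set missing peaks to percentile 0. With a minimum -log10 p of 5 weaker regions numbered 66, and with the same number of top peaks 500. Covered bases turned to -3.25 Mb with the same number of top peaks and ranged from -2.57 Mb (without P5 replicate 3) to 7.43 Mb over samples left out. With all 13 samples 20 regions were wider and 109 narrower. The promoter share of gained and lost regions was 2.36% and 6.62% with a minimum -log10 p of 5, 2.38% and 6.89% with the same number of top peaks, 1.90% of gained with all 3 replicates, and 2.2% to 2.92% and 5.22% to 7.13% over samples left out. TEAD matches fell to 19.4% of stronger regions with all 13 samples, below their share of all regions, and EBF matches were in 1.14% to 4.55% of stronger regions over P5 samples left out, the latter of 22 regions. With no filter on low counts, 1.05% of genes near gained regions were higher and 1.66% lower in RNA-seq, and 2.43% near lost regions were lower, as more genes were tested, and leaving out libraries gave 1.08% to 1.77% higher genes near gained regions. The causes of the other changes were not tested. Deviations of ATAC-seq samples with the same replicate number had correlations of 0.0728, 0.0514 and 0.266. Those of samples with different numbers lay between -0.171 and 0.124. With 3 samples per passage these values cannot decide whether the number pairs the samples. With the replicate block 1380 regions were stronger and 202 weaker. Peaks per sample cannot differ with the same number of top peaks, and motif shares were not computed for fewer than 20 regions.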
